A study of Mus musculus with 15 samples.

Results

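Igfbp4 and Dtx1 are 2 of the 17493 genes in the count tables, found by their symbols, and both were among the 10831 genes with enough counts to test. They were chosen by their measured levels: both fell after stimulation of CD8+ T cells, and the depth of the fall was to be compared between both stimuli at 8 h and 22 h. Differences between the 5 groups are therefore given for both genes as descriptions, without a p-value, and p-values are given only for other genes. The data are bulk RNA-seq counts from 15 libraries of CD8+ OT-I T cells, isolated out of the spleen and lymph nodes. The mice were females of the strain C57BL/6-Tg(TcraTcrb)1100Mjb/Crl. Every group, the controls included, carries the same transgenic T cell receptor. Age was not given in the sources used here.

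There were 5 groups of 3 libraries. Unstimulated cells were taken at 0 h. Cells of the IF groups were cultured for 8 h or 22 h with immunofilaments at 5 ng/ml, which are synthetic filaments carrying SIITFEKL-loaded MHC and interleukin-2 (IL-2). Cells of the DC groups were cultured for 8 h or 22 h with 20000 dendritic cells per well, which the labels call Flt-3 ligand dendritic cells and which had been loaded with SIITFEKL. A well held 50000 T cells. The labels name IL-2 for the filaments and not for the dendritic cells, so the effects of the stimulus and of IL-2 cannot be told apart. Unstimulated cells kept for 8 h or 22 h were not analysed here, so stimulation and time in culture cannot be told apart either. The authors sorted viable cells that were CD8+ and CD103-. Titles number the libraries of every group Don1 to Don3, given here as replicates 1 to 3. What Don stands for is not spelled out in the sources used here, so whether the libraries of a group came from separate animals is not known, and p-values measure only the spread between these libraries, which may be technical.

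Igfbp4 encodes a secreted protein that binds insulin-like growth factors (IGF) outside the cell and limits their access to the receptor Igf1r. In T cells its mRNA is known as a transcript of the naive state. Dtx1 encodes deltex 1, a ubiquitin ligase first known as a regulator of signalling through Notch receptors. In T cells Dtx1 is also known as a target of NFAT that promotes anergy, the unresponsive state that follows receptor signalling without costimulation.

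In the GENCODE vM21 annotation of GRCm38 (mm10), Igfbp4 (ENSMUSG00000017493.12) lies on the plus strand of chromosome 11, from 99041244 to 99054392. It has 6 annotated transcripts and 4416 exonic bases. Dtx1 (ENSMUSG00000029603.15) lies on the minus strand of chromosome 5, from 120680202 to 120711927, with 6 annotated transcripts and 5270 exonic bases. Neither gene shares exonic bases with another annotated gene, unlike several of the genes they are compared with here.

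The sequence before each RefSeq start is shown because the 2 genes fell together and the letters show what lies there. Both are from RefSeq (GRCm38.p6), written 5′ to 3′ on the gene's own strand. The Igfbp4 sequence is the 250 bases before the start, chr11:99040994-99041243. Its capitals mark a match to the letters GGGTGTG, bound by factors of the KLF family, 48 to 42 bases before the start, and a TATA box, TATAAA, 28 to 23 bases before it. The Dtx1 sequence is a window of 30 bases, chr5:120711712-120711741, whose capitals mark 1 of 3 GC boxes, GGGCGG, 60 to 55 bases before the RefSeq start at 120711669.
Igfbp4: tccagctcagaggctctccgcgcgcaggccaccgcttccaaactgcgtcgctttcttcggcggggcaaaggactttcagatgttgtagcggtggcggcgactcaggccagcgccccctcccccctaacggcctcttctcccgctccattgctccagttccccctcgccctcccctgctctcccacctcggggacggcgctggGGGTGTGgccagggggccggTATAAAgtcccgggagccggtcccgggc
Dtx1: gtcacagcggctGGGCGGatcggtctcctc
Only this short window is printed for Dtx1 because GENCODE also annotates a transcript that starts 258 bases further upstream, at 120711927. Its first exon runs from 120711927 down to 120711485 and holds the RefSeq start and the 250 bases before it.

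Letters of 9 motifs were searched on both strands in the 250 bases before the RefSeq start. The bases before the outer GENCODE start of Dtx1, at 120711927, were not searched. Igfbp4 held 1 TATA box and 1 KLF match. Dtx1 held 3 GC boxes and neither of those. TATAAA was present in 12.4%, GGGTGTG in 6.93% and GGGCGG in 32.7% of 32851 promoters of the same length. Neither window held TGGGAA (RBPJ, the DNA-binding partner of Notch), TGTTTAC (FOXO), CTTTGAT (TCF/LEF), TGTGGT (RUNX), GTGGGCG (EGR) or GGAAA (NFAT). In the same order these were present in 21.6%, 3.17%, 3.21%, 14%, 7.02% and 55.6% of promoters. By their exact letters, none of the 9 motifs was shared by both genes in this window, and related letters were not searched. The G and C content was 69.2% for Igfbp4 and 56.4% for Dtx1, against a median of 52.4%. There were 22 CpG dinucleotides in the Igfbp4 window and 15 in the Dtx1 window, against a median of 6.

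Total counts ranged from 2892874 (IF 8 h replicate 2) to 19806730 (IF 22 h replicate 3), and 11427 to 13591 genes were detected in a library. Mitochondrial ribosomal RNA took 0.179% and 0.146% of the counts in IF 22 h replicates 2 and 3, against 3.17% in replicate 1 of that group and 1.82% to 4.49% in the other 12 libraries. Differences of Igfbp4 and Dtx1 that involve IF 22 h are therefore also given without replicates 2 and 3. The summed level of 10 CD8 T cell markers was 8975 to 9724 CPM (normalised read count, scaled by the TMM-adjusted library total) in unstimulated cells and 4115 to 6557 CPM after stimulation, with none at 0. Scaling by library size alone, in place of the TMM method used throughout, moved the log2 fold change of the median gene against unstimulated cells from 0.02, 0.04, 0.01 and 0.04 (IF 8 h, DC 8 h, IF 22 h, DC 22 h) to 0.26, 0.30, 0.22 and 0.37. The share of called genes that were higher moved with it, from 39.2%, 40.3%, 43.3% and 43.9% to 76.3%, 79.6%, 74.1% and 85.4%. For IF against DC at 22 h that share moved from 50.6% to 32.8%, and the median from -0.02 to -0.15. Igfbp4 and Dtx1 kept their direction against unstimulated cells, and IF against DC, under every scaling tried.

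Igfbp4 was abundant in unstimulated cells and nearly gone with IF, whereas a fraction of its level was left with DC. In unstimulated cells its level was 637, 576 and 573 CPM, from 4342, 3185 and 2463 counts. After 8 h with IF it was 6.24, 3.32 and 19.8 CPM, from 35, 10 and 74 counts. After 8 h with DC it was 94.0, 153 and 161 CPM, from 949, 1235 and 1097 counts. The lowest unstimulated library was thus above every DC 8 h library, and the lowest DC 8 h library was above every IF 8 h library. After 22 h with IF, Igfbp4 was at 11.4, 4.30 and 11.9 CPM, from 96, 36 and 233 counts. After 22 h with DC it was at 56.7, 109 and 167 CPM, from 498, 990 and 1954 counts. The 22 h values of each stimulus overlapped its 8 h values, and IF and DC did not overlap at either time. In bulk samples fewer cells that express a gene and less RNA per cell cannot be told apart, here and in all that follows.

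As group means, Igfbp4 was at 595 ± 36.4 CPM (SD, n = 3) in unstimulated cells. It was at 9.79 ± 8.81 CPM in IF 8 h and 136 ± 36.7 CPM in DC 8 h, which are 1.65% and 22.9% of the unstimulated mean. At 22 h the means were 9.21 ± 4.25 CPM with IF and 111 ± 55.2 CPM with DC, or 1.55% and 18.7% of the unstimulated mean. In order, unstimulated cells stood above DC 8 h and DC 22 h, whose values overlapped, and these stood above IF 8 h and IF 22 h, whose values also overlapped. The libraries of IF 8 h spanned 3.32 to 19.8 CPM, and the 95% Poisson interval of replicate 3 (15.6 to 24.9 CPM) lay above that of replicate 1 (4.35 to 8.68 CPM). These intervals cover counting error only, since reads amplified by in vitro transcription need not be independent molecules.

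Dtx1 also lost most of its level, and with IF its level differed between 8 h and 22 h. In unstimulated cells it was at 309, 260 and 272 CPM, from 2107, 1436 and 1170 counts. After 8 h with IF it was at 9.99, 3.65 and 6.97 CPM, from 56, 11 and 26 counts. After 8 h with DC it was at 40.7, 78.4 and 32.4 CPM, from 411, 631 and 221 counts. Every unstimulated library was above every DC 8 h library, and each of those was above every IF 8 h library. After 22 h with IF, Dtx1 was at 28.4, 18.6 and 16.6 CPM, from 239, 156 and 326 counts. After 22 h with DC it was at 43.5, 35.5 and 41.3 CPM, from 382, 321 and 483 counts. The 3 IF 22 h libraries were thus above the 3 IF 8 h libraries and below the 3 DC 22 h libraries.

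The group means of Dtx1 were 280 ± 25.8 CPM (SD, n = 3) in unstimulated cells, 6.87 ± 3.17 CPM in IF 8 h and 50.5 ± 24.5 CPM in DC 8 h. At 22 h they were 21.2 ± 6.32 CPM with IF and 40.1 ± 4.12 CPM with DC. As shares of the unstimulated mean these are 2.45% in IF 8 h, 18% in DC 8 h, 7.58% in IF 22 h and 14.3% in DC 22 h. In order, unstimulated cells stood above DC 8 h and DC 22 h, whose values overlapped, then came IF 22 h, and IF 8 h was lowest.

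**Figure D1:**
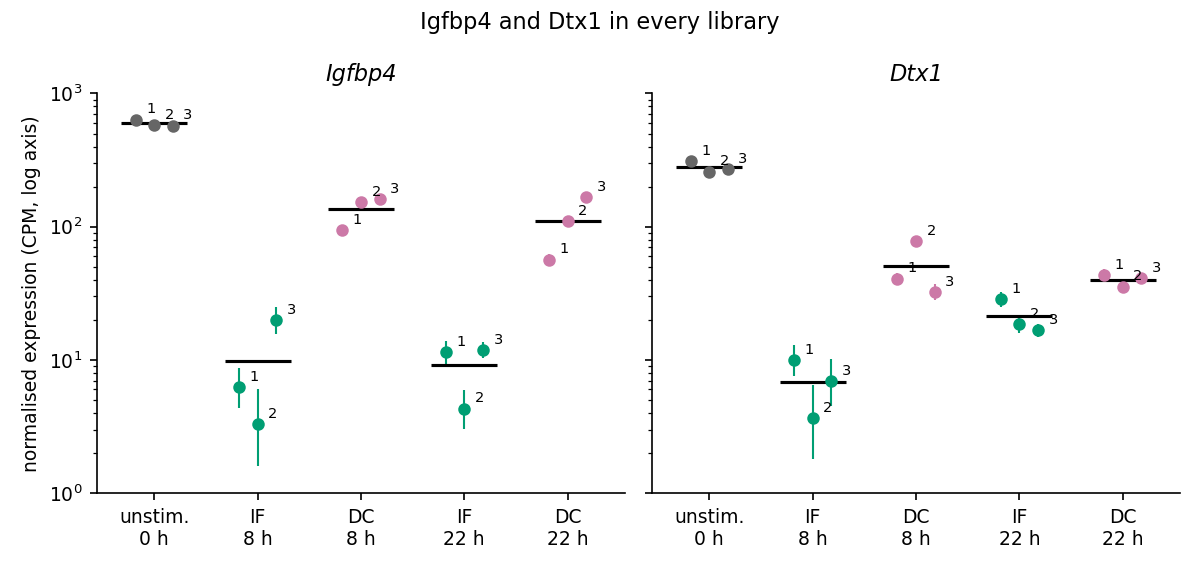
Normalised level of Igfbp4 and Dtx1 in each of the 15 libraries, in CPM on a log axis, by group; the numbers are replicates, the bars on the points are 95% Poisson intervals of the count and the black lines are group means. For Igfbp4 both IF groups lie below 20 CPM at either time, and for Dtx1 the IF 22 h libraries lie between those of IF 8 h and DC 22 h.

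Against unstimulated cells, the log2 fold change of Igfbp4 was -5.92 ± 0.56 (SE) in IF 8 h and -5.99 ± 0.55 in IF 22 h. With DC it was -2.13 ± 0.45 at 8 h and -2.42 ± 0.46 at 22 h. The log2 fold change of Dtx1 was -5.29 ± 0.38 in IF 8 h, -3.73 ± 0.33 in IF 22 h, -2.47 ± 0.32 in DC 8 h and -2.81 ± 0.32 in DC 22 h. These 4 comparisons share the 3 unstimulated libraries. Among the 10831 genes ordered from the lowest log2 fold change, Igfbp4 stood at place 50 in IF 8 h, 181 in DC 8 h, 22 in IF 22 h and 116 in DC 22 h. Dtx1 stood at places 67, 127, 61 and 92 in the same order of groups. Leaving out IF 8 h replicate 3, which had the highest Igfbp4 level of its group, gave Igfbp4 a log2 fold change of -6.89 in IF 8 h. Without IF 22 h replicates 2 and 3 the values in IF 22 h were -5.70 ± 0.84 for Igfbp4 and -3.30 ± 0.51 for Dtx1. Of all genes tested, 4.72%, 4.07%, 3.44% and 4.35% were called lower at the threshold (adjusted p of 0.05, edgeR) in the same order of groups, and nothing is read from those shares for Igfbp4 and Dtx1, because the fall chose them.

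With IF, Igfbp4 was lower than with DC at both times. At 8 h the log2 difference was -3.79 ± 0.52 (SE), or 13.9-fold, and -4.76 without IF 8 h replicate 3. At 22 h it was -3.57 ± 0.50, or 11.9-fold. Ordered from the lowest difference, Igfbp4 stood at place 107 of the genes tested at 8 h and 44 at 22 h. All 3 IF libraries were below all 3 DC libraries at either time. Leaving out any 1 library gave log2 differences of -3.89 to -3.15 at 22 h. Without IF 22 h replicates 2 and 3 the difference at 22 h was -3.28 ± 0.73, with the lone IF 22 h library assumed to vary like the other groups.

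For Dtx1 the gap between IF and DC was wide at 8 h and narrow at 22 h. At 8 h its log2 difference was -2.82 ± 0.35 (SE), a level 7.05-fold lower with IF, and -3.24 to -2.35 when any 1 library was left out. Ordered from the lowest difference, Dtx1 stood at place 168 of the genes tested at 8 h and 987 at 22 h. At 22 h the log2 difference was -0.92 ± 0.31, or 1.90-fold, with 16.6 to 28.4 CPM with IF and 35.5 to 43.5 CPM with DC, which did not overlap. Leaving out any 1 library gave -1.19 to -0.77 at 22 h, the first without IF 22 h replicate 1. Without IF 22 h replicates 2 and 3 it was -0.50, a level difference smaller than in any fit that left out 1 library. Genes called lower with IF made up 0.434% of all genes tested at 8 h and 1.20% at 22 h, and nothing is read from that for Igfbp4 and Dtx1, because the depth of the fall chose them.

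Between 8 h and 22 h with IF, the log2 difference of Igfbp4 was -0.07 ± 0.51 and that of Dtx1 was 1.56 ± 0.35, both as descriptions, where 0.637% of all genes were called higher, 0.480% lower and 1.12% in either direction. Without IF 8 h replicate 3, the value of Igfbp4 was 0.90. These values were 0.23 for Igfbp4 and 1.99 for Dtx1 without IF 22 h replicates 2 and 3. With DC, Igfbp4 differed by -0.29 ± 0.44, as a description. Dtx1 with DC differed by -0.33 ± 0.30 between the times, where 0.102% of all genes were called lower and 0.480% in either direction. Its value was 0.13 without DC 8 h replicate 2. The 3 same-numbered pairs of DC 8 h and DC 22 h libraries correlated at 0.116 to 0.399 in their deviations, while the differently numbered pairs ranged from -0.307 to 0.117. With the number as a block in these 6 libraries Dtx1 was at -0.24 ± 0.26 and Igfbp4 at -0.39 ± 0.16, and 166 of 10182 genes were called. Without the block, 0 genes were called in a fit of these 6 libraries and 52 of 10831 in the fit of all 15. The change in the IF-DC gap from 8 h to 22 h was computed after the data were seen. On the log2 scale it was 1.90 ± 0.46 for Dtx1 and 0.22 ± 0.68 for Igfbp4, as descriptions. Of the 10831 genes tested, 0 were called for this change. For Igfbp4 it was 1.19 without IF 8 h replicate 3. The change was 2.32 for Dtx1 and 0.51 for Igfbp4 without IF 22 h replicates 2 and 3.

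**Figure D2:**
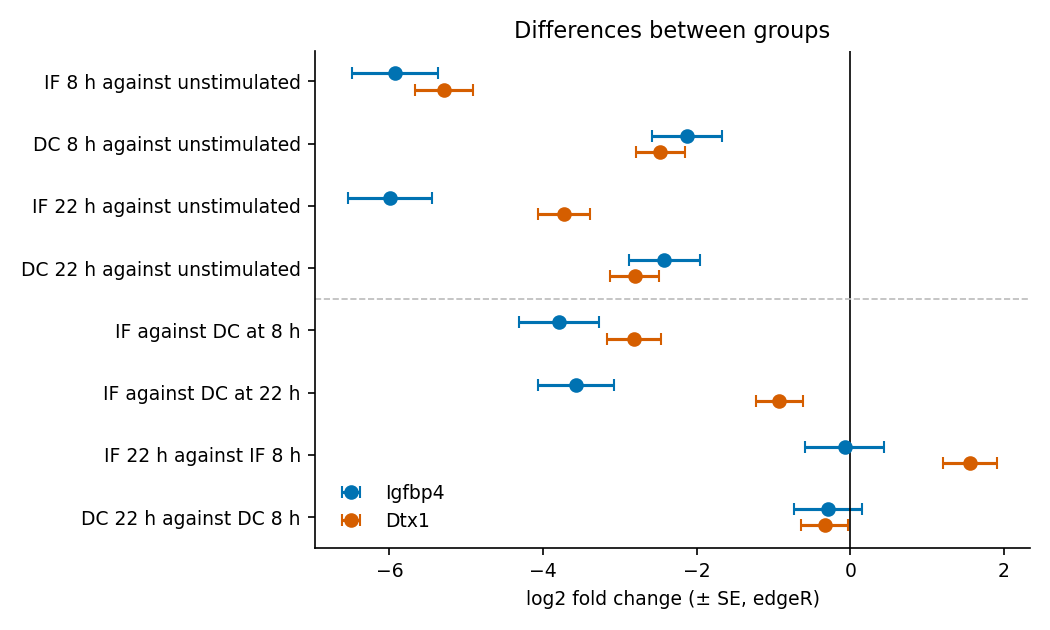
Log2 fold changes of Igfbp4 and Dtx1 in each comparison, with bars of 1 SE from the edgeR fit on 15 libraries and a line at 0. Igfbp4 lies near -6 in both IF groups, and Dtx1 lies at -5.29 in IF 8 h and -3.73 in IF 22 h.

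Because the 2 genes were counted in the same libraries, the ratio of their counts does not depend on scaling. In unstimulated cells there were 2.06, 2.22 and 2.11 Igfbp4 counts per Dtx1 count. After 8 h the ratios were 0.625, 0.909 and 2.85 with IF and 2.31, 1.96 and 4.96 with DC, and these overlapped. After 22 h they were 0.402, 0.231 and 0.715 with IF and 1.30, 3.08 and 4.05 with DC. All 3 IF 22 h ratios were below every unstimulated and every DC ratio. The mean log2 ratio was lower with IF than with DC by -1.26 at 8 h and by -2.65 at 22 h, as descriptions.

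**Figure D3:**
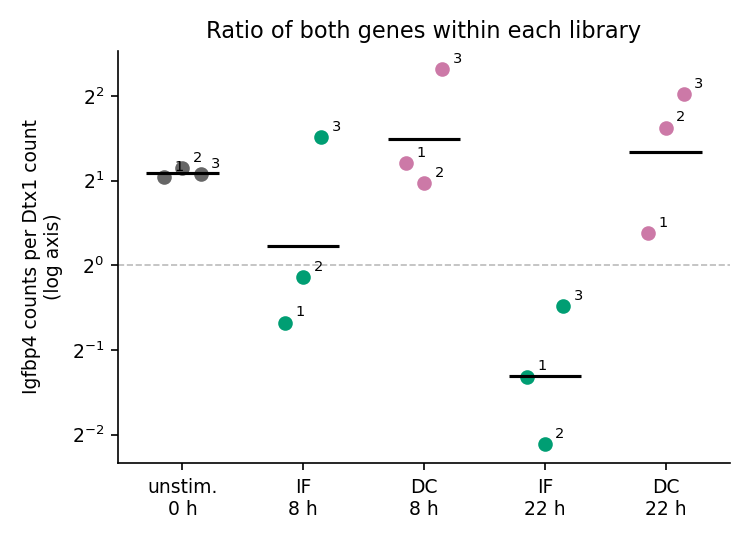
Igfbp4 counts per Dtx1 count in each library on a log axis, by group, with points for libraries and lines for the group means of the log2 ratio. The 3 unstimulated libraries lie between 2.06 and 2.22, and the 3 IF 22 h libraries lie between 0.231 and 0.715.

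Around Dtx1, 0 or 1 of the other tested genes of the Notch pathway passed in each comparison with unstimulated cells. Of 43 listed genes, 42 were in the tables and 32 were tested. None of the 32 passed in IF 8 h or DC 8 h against unstimulated cells, where 7.76% and 6.82% of all genes were called. In IF 22 h 1 gene passed, Dtx3l, and in DC 22 h 1 passed, Dtx4, against 6.08% and 7.76% of all genes. The medians of the list were -0.06, -0.05, -0.23 and -0.17 (IF 8 h, DC 8 h, IF 22 h, DC 22 h), against 0.02, 0.04, 0.01 and 0.04 over all genes tested. At IF against DC, 0 of 32 passed at 8 h (0.665% of all genes) and 2 were lower at 22 h (2.43% of all genes, 1.20% lower). With 32 genes these counts are too small to say anything particular about the list, and other settings gave up to 4.

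None of the relatives Dtx2, Dtx3, Dtx3l and Dtx4 was called lower in IF 8 h, where 4.72% of all genes were. Dtx3l, a deltex-family ligase that works with Parp9, was at 208 ± 26.8 CPM in unstimulated cells, 222 ± 12.2 CPM in IF 8 h and 116 ± 30.8 CPM in IF 22 h. It fell by 0.84 ± 0.17 on the log2 scale in IF 22 h (adjusted p = 0.00789, edgeR) and was lower with IF than with DC at 22 h by -1.24 ± 0.17 (adjusted p = 0.000941). Dtx3l shares 458 exonic bases with Parp9 on the opposite strand, and the use of strand in the counting was not given in the sources used here. Dtx4 rose from 5.66 ± 4.60 CPM to 20.5 ± 10.7 CPM in DC 22 h (log2 fold change 1.90 ± 0.52, adjusted p = 0.0339, edgeR). Dtx2 was at 40.4 ± 13.2 CPM in unstimulated cells and 28.8 ± 6.39 CPM in IF 8 h, and Dtx3 was at 49.2 ± 5.24 CPM and 30.2 ± 11.8 CPM. Neither passed in any of the 4 comparisons with unstimulated cells.

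The receptor Notch1 was at 56.5 ± 8.53 CPM in unstimulated cells, 57.6 ± 9.33 CPM in IF 8 h and 59.9 ± 8.36 CPM in DC 8 h. At 22 h it was at 39.5 ± 6.42 CPM with IF and 70.8 ± 4.25 CPM with DC, a log2 difference of -0.84 ± 0.19 (adjusted p = 0.0240, edgeR). Notch1 shares exonic bases with 2 transcripts on the opposite strand. Notch2 group means lay between 42.4 and 53.1 CPM and those of Rbpj, which carries the Notch signal to DNA, between 65.1 and 95.1 CPM, with no call for either against unstimulated cells. Notch3 had 25 counts over all libraries and was not tested, and Notch4 had 75 and passed nowhere. Of the Notch target genes, Nrarp was low in every group, at 3.89 ± 1.52 CPM in unstimulated cells and 1.77 to 3.20 CPM after stimulation, without a call. Hes1 had 3, 15 and 8 counts in the unstimulated libraries and 0 in each of the 12 stimulated libraries, too few to be tested. A count of 0 allows a Hes1 level of up to 0.153 to 0.995 CPM in those 12 libraries, taking 3 counts as the limit. Hes5 was also too low to test, with means of 1.12 CPM in unstimulated cells, 1.03 CPM in IF 8 h and 0.142 CPM in IF 22 h, and 0 counts in the 6 DC libraries. Hey1 was tested and not called, with group means of 0.114 to 0.905 CPM, and Hey2 had 4 counts in all.

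These small Notch counts moved when 1 library was left out. In DC 22 h 0 genes passed without DC 22 h replicate 1 or 3, or without unstimulated replicate 1 or 2. In IF 22 h 0 passed without IF 22 h replicate 3 or unstimulated replicate 2, and 3 passed without IF 22 h replicate 1 or unstimulated replicate 3. In DC 8 h 1 passed without DC 8 h replicate 3 and 2 passed without unstimulated replicate 3. At IF against DC at 22 h, leaving out DC 22 h replicate 1, IF 22 h replicate 2 or IF 22 h replicate 3 left 1, and 3 was the highest count over the 6 fits. Without IF 22 h replicates 2 and 3 together, 0 Notch genes passed in IF 22 h and in IF against DC at 22 h.

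Around Igfbp4, most other genes of the IGF system had few counts. Of 24 listed genes, 21 were in the tables and 9 were tested. In the fit with TMM, the low-count filter and no block, 0 of the 9 passed in any comparison, where 6.08% to 7.76% of all genes were called against unstimulated cells. With 9 genes a count of 0 is near that background and says nothing particular about the list, and other settings gave up to 3 in IF 8 h and up to 2 in IF 22 h and DC 22 h. The binding proteins Igfbp2, Igfbp5, Igfbp6 and Igfbp7 had 10, 9, 8 and 33 counts in all 15 libraries together, too few to test, whereas Igfbp4 had at least 2463 counts in each unstimulated library. Igf1 and Igf2, the ligands, had 12 and 24 counts. Igf1r, the receptor for Igf1, was at 25.5 ± 3.67 CPM in unstimulated cells, 60.8 ± 16.7 CPM in IF 8 h, 42.4 ± 11.7 CPM in DC 8 h, 50.5 ± 16.7 CPM in IF 22 h and 59.4 ± 35.7 CPM in DC 22 h. Its log2 fold change was 1.25 ± 0.41 in IF 8 h (adjusted p = 0.0718, edgeR) and 1.22 ± 0.40 in DC 22 h (adjusted p = 0.0769), which did not pass. Igf2r, which takes up Igf2 for breakdown, was at 89.2 ± 9.77 CPM in unstimulated cells and between 60.4 and 67.4 CPM on average after stimulation. Insr, the insulin receptor, had group means of 3.91 to 8.41 CPM. Irs2, an adaptor of the insulin and IGF receptors, had the lowest share of its unstimulated mean among the 9 in every stimulated group, 55.1% in IF 8 h, 45.2% in DC 8 h, 14.3% in IF 22 h and 29.5% in DC 22 h. Its level was 14.8 ± 1.15 CPM in unstimulated cells and 2.11 ± 3.22 CPM in IF 22 h, and its log2 fold change there was -2.88 ± 0.86 (adjusted p = 0.0583, edgeR), which did not pass. Leaving out 1 library gave 1 IGF gene in DC 22 h (without DC 22 h replicate 2), 1 in IF 22 h and 2 in IF against DC at 22 h (both without IF 22 h replicate 1).

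Of the other genes linked to anergy, the state that Dtx1 is known to promote, those called with IF against unstimulated cells were all higher, whereas Dtx1 was lower. Of 22 listed genes, 21 were in the tables and 19 were tested. In IF 8 h 4 were higher and 0 lower, where 3.04% of all genes were called higher and 4.72% lower. In IF 22 h 4 were higher and 0 lower (2.63% and 3.44% of all genes). In DC 8 h 1 was higher and 2 lower (2.75% and 4.07%), and in DC 22 h 1 was higher and 2 lower (3.41% and 4.35%). The medians of the list were 0.27 in IF 8 h, 0.07 in DC 8 h, 0.20 in IF 22 h and -0.14 in DC 22 h.

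Cblb, a ubiquitin ligase that restrains T cell receptor signalling, was higher in all 4 comparisons. It was at 37.4 ± 2.89 CPM in unstimulated cells, 122 ± 14.7 CPM in IF 8 h, 84.3 ± 10.9 CPM in DC 8 h, 121 ± 16.1 CPM in IF 22 h and 66.6 ± 15.4 CPM in DC 22 h. Egr2, a transcription factor of the anergy programme that also responds to receptor signalling, rose from 7.23 ± 6.27 CPM to 41.9 ± 10.5 CPM in IF 8 h and 51.4 ± 10.8 CPM in IF 22 h. With DC it was at 7.95 ± 6.78 CPM at 8 h and 5.81 ± 6.89 CPM at 22 h. Nfatc1, an NFAT factor, rose by a log2 fold change of 0.90 ± 0.23 in IF 8 h and 1.27 ± 0.23 in IF 22 h. The inhibitory receptor Lag3 rose from 0.673 ± 0.661 CPM to 12.8 ± 4.69 CPM in IF 22 h, and Ndrg1 rose in IF 8 h (1.36 ± 0.39) and fell by 1.70 ± 0.41 in DC 22 h. The lower genes in DC 8 h were Nfatc2 (-1.11 ± 0.28) and Ikzf1 (-0.54 ± 0.14), and Ikzf1 was also lower in DC 22 h (-0.55 ± 0.14).

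At IF against DC, 0 of the 19 anergy genes passed at 8 h, where 0.665% of all genes were called. With 19 genes a count of 0 is near that background and says nothing particular about the list. At 22 h 5 were higher and 1 lower with IF (1.23% and 1.20% of all genes). The 4 with the smallest p were Nfatc1 (1.18 ± 0.23), Dgkz (0.83 ± 0.16), Ndrg1 (1.90 ± 0.41) and Cblb (0.87 ± 0.19). The other 2 were Egr2 (3.16 ± 0.73) and, lower, Nedd4 (-0.76 ± 0.17). Ndrg1 and Dgkz overlap exons of genes that lie on the opposite strand. The count of 6 was 2 without DC 22 h replicate 1 and 3 without DC 22 h replicate 3. It was 0 when IF 22 h replicate 3 was left out, alone or with replicate 2.
The counts against unstimulated cells moved as well. In IF 8 h 1 or 2 passed without IF 8 h replicate 1 or 3 or unstimulated replicate 1 or 2. In IF 22 h 2 passed without IF 22 h replicate 3 or unstimulated replicate 2. In DC 8 h 1 passed without DC 8 h replicate 2 or unstimulated replicate 1 or 2. In DC 22 h 1 passed without DC 22 h replicate 1 or 2 or unstimulated replicate 1, and 0 without unstimulated replicate 2.

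Genes of the naive T cell state, to which Igfbp4 is known to belong, kept more of their level than Igfbp4 and Dtx1, which were chosen for their fall. All 20 listed genes were tested. Against unstimulated cells 1 was higher and 2 lower in IF 8 h, 1 higher and 1 lower in DC 8 h, and 1 higher and 3 lower in both IF 22 h and DC 22 h. In the same order 3.04%, 2.75%, 2.63% and 3.41% of all genes were called higher and 4.72%, 4.07%, 3.44% and 4.35% lower. Foxo1, a factor of T cell quiescence, was lower in all 4 comparisons, by log2 fold changes of -0.85 ± 0.19, -1.02 ± 0.19, -0.997 ± 0.19 and -0.87 ± 0.19 (IF 8 h, DC 8 h, IF 22 h, DC 22 h). Bach2, a repressor of effector genes, was higher in all 4, by 1.68 ± 0.25, 1.32 ± 0.24, 0.94 ± 0.24 and 1.11 ± 0.24. Foxo1 and Bach2 each share exonic bases with an antisense transcript. The other calls were Dapl1 in IF 8 h (-0.74 ± 0.17) and DC 22 h (-0.72 ± 0.17), the lymph node homing receptor Ccr7 (-0.58 ± 0.15) and Satb1 (-0.66 ± 0.18) in IF 22 h, and Ets1 (-0.65 ± 0.16) in DC 22 h.

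The lowest member of the naive list kept 52.3% of its unstimulated mean in IF 8 h (Klf3), 49.2% in DC 8 h (Foxo1), 39.1% in IF 22 h (Klf3) and 54.6% in DC 22 h (Foxo1). In the same groups Igfbp4 kept 1.65%, 22.9%, 1.55% and 18.7%, and Dtx1 kept 2.45%, 18%, 7.58% and 14.3%. Both were thus below all 20 listed genes in every stimulated group. Igfbp4 and Dtx1 were chosen because they fell, which favours this order, so it is a description and nothing is read from it. At IF against DC 0 of the 20 passed at 8 h (0.665% of all genes) and 1 at 22 h (2.43%), Id3 (0.84 ± 0.20, higher with IF). Without IF 22 h replicate 1 that count was 4, and it was 0 without IF 22 h replicate 2 or 3 or DC 22 h replicate 1 or 3. Against unstimulated cells 1 passed in IF 8 h without IF 8 h replicate 1, and 2 passed in DC 22 h without DC 22 h replicate 2 or unstimulated replicate 2. In IF 22 h 1 or 2 passed without IF 22 h replicate 2 or 3 or any 1 unstimulated library, and 6 was the highest count.

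**Figure D4:**
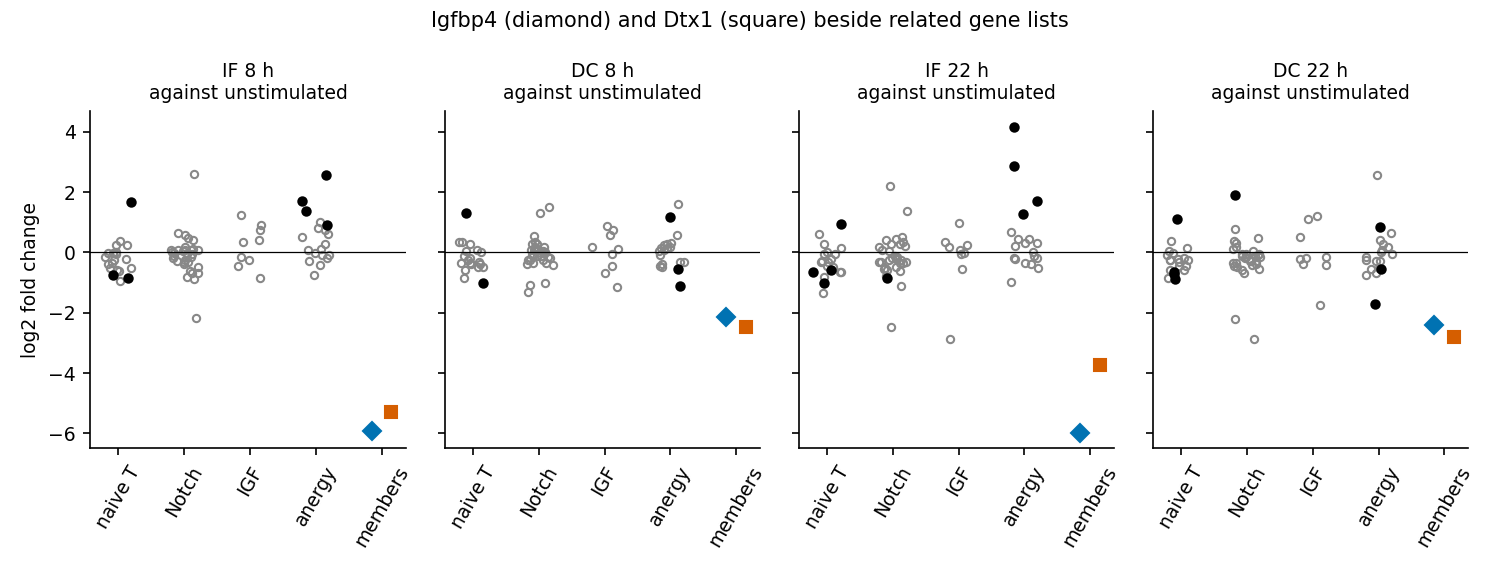
Log2 fold change against unstimulated cells of every tested gene of the naive T cell, Notch pathway, IGF system and anergy lists, 1 panel per stimulated group, with filled points for genes past the threshold, open points for the others, and Igfbp4 (diamond) and Dtx1 (square) in the column labelled members. Igfbp4 and Dtx1, which were chosen for their fall, lie below all 20 genes of the naive list in each panel.

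Markers of other cells were low or moved in ways given here beside the IF-DC differences of Igfbp4 and Dtx1. The summed level of 20 dendritic cell markers was 213 to 472 CPM in IF 8 h and 862 to 1245 CPM in DC 8 h, which did not overlap, and 374 to 630 CPM in IF 22 h and 476 to 647 CPM in DC 22 h, which overlapped. It was 648 to 1537 CPM in unstimulated cells. Zbtb46 and Ccl17 were at 0 in all unstimulated libraries, and Zbtb46, Batf3 and Il12b in all IF 8 h libraries. The members did not move together. Of the 16 tested, 4 were called lower with IF than with DC at 8 h (0.434% of all genes), and 2 lower and 1 higher at 22 h (1.20% and 1.23%). Fscn1, which mature dendritic cells express highly, averaged 2.31 CPM in unstimulated cells, 0.489 CPM in IF 8 h, 142 CPM in DC 8 h, 23.7 CPM in IF 22 h and 85.1 CPM in DC 22 h. Others had lower means with DC than in unstimulated cells. Itgax averaged 14.5 CPM in unstimulated cells, 5.32 CPM in DC 8 h and 3.95 CPM in DC 22 h. In the same order Xcr1 averaged 24.1, 2.86 and 0.198 CPM and H2-Ab1 228, 107 and 74.3 CPM. These falls were called in DC 22 h and not in DC 8 h. Ccl22 rose, as Fscn1 did, with means of 0.049, 14.3 and 9.20 CPM. H2-Aa, H2-Eb1 and Cd74 averaged 223, 272 and 118 CPM in DC 8 h and 187, 197 and 95.7 CPM in unstimulated cells, without a call. Of the 16, 2 were called higher and 0 lower in DC 8 h against unstimulated cells (2.75% and 4.07% of all genes). In DC 22 h 2 were higher and 4 lower (3.41% and 4.35%). The part of dendritic cell RNA in the levels of Igfbp4 and Dtx1 was not tested. Of the 15 B cell markers 12 were in the tables and summed to 6.09 to 46.6 CPM over the libraries, with Vpreb3 at 0 in all of them. Markers of CD4 T cells and NK cells (4 genes) summed to 0.664 to 14.9 CPM, with Cd4 at 0 in the unstimulated, IF 8 h, DC 8 h and DC 22 h libraries. Of the 10 CD8 T cell markers, 6 were called lower in IF 8 h, 8 in DC 8 h, 5 in IF 22 h and 6 in DC 22 h, where 4.72%, 4.07%, 3.44% and 4.35% of all genes were called lower, and 0 were called higher. At IF against DC, Cd5 was called higher with IF at 8 h (0.97 ± 0.17, 0.231% of all genes higher). At 22 h 4 of the 10 were, Cd5 (0.82 ± 0.16), Cd2 (0.70 ± 0.15), Cd3g (0.80 ± 0.18) and Cd3e (0.75 ± 0.18), where 1.23% of all genes were. The part of this in the IF-DC differences of Igfbp4 and Dtx1, which have the opposite direction, was not tested.

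The genes most like each of the pair were those with the highest Pearson correlation of log2 CPM over the 15 libraries, among 6953 genes with a mean of at least 10 CPM. The libraries fall into groups that drive such values, so they are descriptions without a p. Igfbp4 was most like Treml2 (r = 0.926), Phf11c (0.926), Park7 (0.926), Junb (0.899), Dph5 (0.897) and Nfkbiz (0.894). Dtx1 was most like Vav1 (0.930), Lgals9 (0.926), Cd8a (0.917), Park7 (0.910), Nab1 (0.904) and Amica1 (0.898). Only Park7 was in both of these sets. The correlation of Igfbp4 with Dtx1 was 0.893, which put Dtx1 at place 7 for Igfbp4 and Igfbp4 at place 8 for Dtx1. With a floor of 50 CPM in place of 10, the set of Igfbp4 kept 3 of its 6 genes and that of Dtx1 kept 4, and Park7, Junb and Vav1 were then in both sets.

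These genes shared the shape of the pattern more than its depth. Junb, an AP-1 subunit that shares 173 exonic bases with Prdx2 on the opposite strand, came nearest to the depth of Igfbp4, with 12.1% of its unstimulated mean in IF 8 h, 27.7% in DC 8 h, 9.34% in IF 22 h and 19.2% in DC 22 h. Treml2, a receptor of the TREM family, kept 27.5%, 58.6%, 18.5% and 73.0% in the same groups. Amica1, an adhesion molecule, kept 18.4%, 45.6%, 24.1% and 45.7%. Vav1, a signalling protein downstream of the T cell receptor, kept 70.1% to 83.9%, and Cd8a, the coreceptor, kept 47.9% to 77.8%. At IF against DC at 22 h, the log2 differences were -1.98 for Treml2, -1.04 for Junb, -1.01 for Phf11c, -0.95 for Nfkbiz, -0.57 for Dph5 and -0.42 for Park7, beside -3.57 for Igfbp4. They were picked for being like Igfbp4 over the same libraries, so these values are descriptions too.

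**Figure D5:**
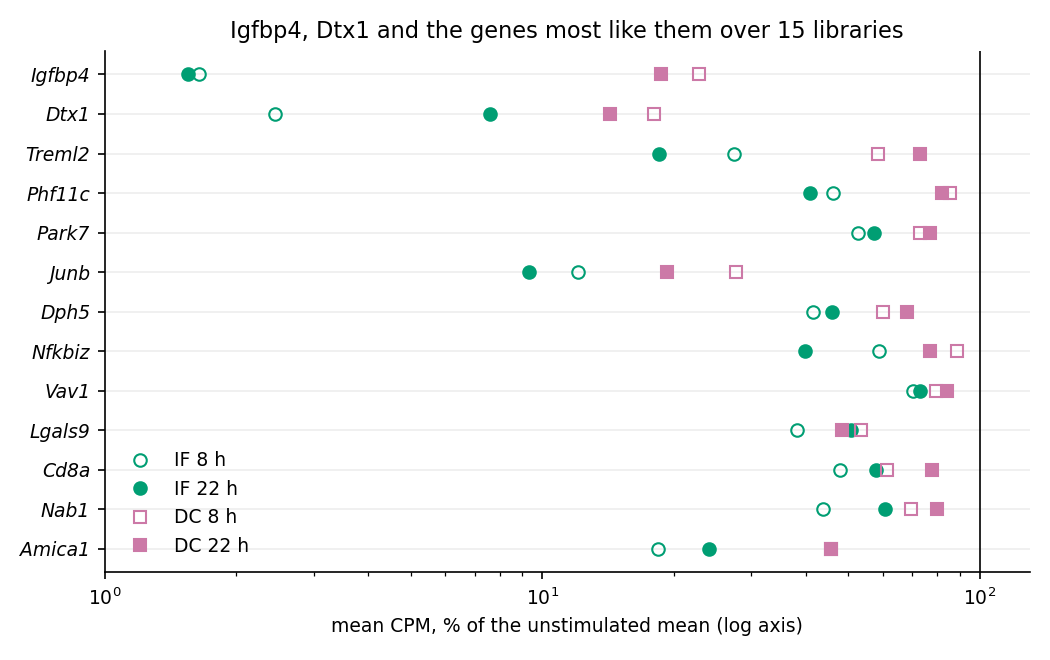
Mean CPM of Igfbp4, Dtx1 and the 11 genes most like them as a percent of the unstimulated mean, on a log axis, with circles for IF, squares for DC, open symbols for 8 h, filled symbols for 22 h and a line at the unstimulated level. Junb lies nearest to Igfbp4 and Dtx1, and the lowest DC value of the other 10 genes is 45.6% (Amica1).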

How the data were processed

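Reads of adapted CEL-seq libraries, sequenced on a NextSeq 500, were made by the authors into tables of whole-number counts per gene, deposited without normalization, 1 table per library. BWA and mm10 are named in the submitters' processing notes, without a version. The counter, annotation, use of strand and use of molecular identifiers were not given in the sources used here. Of 17493 genes, 370 had no count.

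The tests used edgeR 4.0.16 (R 4.3.3), which builds on limma 3.58.1. The filterByExpr function kept genes (minimum count 10, minimum total 15), 10831 in all, with at most 0.124% of a library's counts outside the tests. Libraries were scaled by TMM, and a quasi-likelihood model took all 15 libraries, with a mean for each of the 5 groups. P-values were two-sided and adjusted by Benjamini-Hochberg over all genes tested, with a threshold of 0.05. Log2 fold changes used a prior count of 0.125. The script was tested on simulated data. Depths of 2892874 to 19806730 counts set the Poisson intervals.

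Igfbp4, Dtx1 and the gene lists were chosen with earlier results of these data known. P-values of both genes were fitted but are not given, since the choice of genes names all 5 groups. Named besides these were the 6 genes most like each (prior count 2), up to 4 genes per list and comparison with the smallest p, and receptors, targets and binding proteins of the Notch and IGF lists. Egr2 and Nedd4 in the 22 h contrast, Irs2, Hes5, Hey1, Hey2, Klf3, Fscn1, Ccl22, Itgax, Xcr1, H2-Ab1, H2-Aa, H2-Eb1, Cd74, the CD8 T cell markers, Dtx2 and Dtx3 were named after their values were seen.

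Alternatives were DESeq2 1.42.0, its size factors, library size alone, no filter on low counts, only the groups compared, the replicate number as a block, each replicate left out, and IF 22 h replicates 2 and 3 left out. Titles carry the numbers Don1 to Don3 in each group. The 3 same-numbered pairs of DC 8 h and DC 22 h had correlated deviations (r 0.116 to 0.399), so for these groups a fit with the number as a block was added after the data were seen. In no other pair of groups were all 3 correlations over 0.1. Replicates of a group differed beyond sampling noise in every pair (chi-square per degree of freedom 9.50 to 98.1), so none was counted as a duplicate.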

Additional observations from a re-analysis of the deposited data

How the results depend on the processing

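The directions of Igfbp4 and Dtx1 against unstimulated cells, and IF against DC, were the same under all alternatives tried, and no called value reversed. With library size alone Dtx1 in DC 22 h was at -2.47, and without IF 22 h replicates 2 and 3 Dtx1 in IF 22 h was at -3.30. Without those replicates Igfbp4 at IF against DC at 22 h was at -3.28. With no filter on low counts Dtx1 in that comparison was at -0.92, and its range with 1 library left out was -1.19 to -0.77. The causes were not tested. Depth limits the low levels most: Igfbp4 and Dtx1 rested on 10 and 11 counts in IF 8 h replicate 2.

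The replicate number as a block gave -3.54 for Igfbp4 and -0.95 for Dtx1 at IF against DC at 22 h, and -2.84 for Dtx1 at 8 h. With the block 1 IGF gene passed in IF 22 h and 1 in IF 8 h. Of 30 same-numbered pairs of libraries (r -0.189 to 0.399, median 0.0034) 4 were over 0.1, and 3 of the 4 were the pairs of DC 8 h with DC 22 h. Of 60 differently numbered pairs 5 were over 0.1. In those 2 groups alone the block gave 166 calls between the times. For the other groups the libraries share only a number.

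All genes called moved by over 1.5 times as follows. DESeq2 called 210 in DC 22 h against DC 8 h (52 with edgeR), 1267 in DC 22 h (840), 1175 in DC 8 h (739), 366 in IF 22 h against IF 8 h (121), 1066 in IF 22 h (658), 1269 in IF 8 h (840), 563 in IF against DC at 22 h (263) and 194 at 8 h (72). Without the low-count filter the counts were 251, 1278, 1129, 502, 1101, 706 and 215, in that order without IF 8 h. With only the groups compared they were 0 in DC 22 h against DC 8 h, 517 in DC 22 h, 993 in IF 22 h, 1299 in IF 8 h, 70 in IF against DC at 22 h and 47 at 8 h. Library size alone gave 1586 in DC 22 h. Without IF 22 h replicates 2 and 3 they were 0 in IF 22 h against IF 8 h, 99 in IF 22 h and 8 in IF against DC at 22 h. With 1 library left out they were 1 to 138 (DC 22 h against DC 8 h), 454 to 984 (DC 22 h), 404 to 665 (DC 8 h), 24 to 541 (IF 22 h against IF 8 h), 283 to 947 (IF 22 h), 419 to 573 (IF 8 h), 90 to 759 (IF against DC at 22 h) and 27 to 52 (at 8 h).

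List counts moved as well. IGF genes: DESeq2 1 in DC 22 h, 1 in IF 22 h and 2 in IF 8 h; library size alone 2 in DC 22 h and 3 in IF 8 h; no filter 2 in each of these; only the groups compared 1 in IF 22 h and 2 in IF 8 h. Naive genes: library size alone 1 in DC 22 h, 1 in IF 8 h and 0 in IF against DC at 22 h; no filter 8 in IF 22 h and 5 in IF 8 h; only the groups compared 7 in IF 8 h; in IF against DC at 22 h DESeq2 2 and only the groups compared 0; without IF 22 h replicates 2 and 3, 1 in IF 22 h and 0 in IF against DC at 22 h. Notch genes: library size alone 4 in DC 22 h, 1 in DC 8 h and 1 in IF 8 h; DESeq2 2 and no filter 2 in DC 8 h; no filter 2 in IF 22 h; only the groups compared 0 in DC 22 h and 0 in IF against DC at 22 h. Anergy genes: DESeq2 5 and only the groups compared 0 in DC 22 h; library size alone 1 in DC 8 h; without IF 22 h replicates 2 and 3, 1 in IF 22 h and 0 in IF against DC at 22 h; only the groups compared 0 in IF against DC at 22 h; at 8 h DESeq2 1, no filter 2 and only the groups compared 1. With 1 library left out, the counts were 0 to 2 (IGF), 0 to 6 (naive), 0 to 3 (Notch) and 0 to 7 (anergy) over the comparisons.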
